A study of Caenorhabditis elegans with 6 samples.

Results

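The mitochondrial ATP synthase of *Caenorhabditis elegans* was followed through 10 of its nuclear subunit genes, chosen by gene name from the 46904 genes of the expression table: *atp-1*, *atp-2*, *atp-3*, *atp-4*, *atp-5*, *asb-1*, *asb-2*, *asg-1*, *asg-2* and *hpo-18*. All 10 were found, and the table describes 9 of them as ATP synthase subunits or homologues; *hpo-18* has no description there. The 6 libraries came from young adults of strain CLP1481, which carries the array twnEx675 with the transgene Ptbh-1::rpl-22::3xHA and, as a second component, Pgcy-8::gfp, and was grown at 20 °C. In 3 libraries the animals had spent 6 h on a bacterial lawn with the solvent (EtOH), and in the other 3 the lawn held 4.5 µM antimycin A, which inhibits complex III of the respiratory chain. Both groups carry the array, so no library lacks the tag. The promoter of *tbh-1*, a gene of octopamine synthesis, drives a ribosomal protein with the HA epitope, and the RNA on HA-tagged ribosomes was pulled down and sequenced (translating ribosome affinity purification). The study compared the trained (antimycin A) with the control animals in 3 independent experiments of 1 library per group; the number of animals per library is not given in the sources used here.

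The ATP synthase uses the proton gradient that the respiratory chain builds across the inner mitochondrial membrane to make ATP. Its F1 head, with the alpha, beta, gamma, delta and epsilon subunits, carries the catalytic sites. The membrane part holds the rotating ring of c subunits and the mitochondrially encoded a subunit, and a peripheral stalk of OSCP and the subunits b, d and F6 holds the head still against it. Antimycin A blocks electron flow upstream of the enzyme, and without a proton gradient the enzyme can run backwards and consume ATP, which the inhibitor protein IF1 restrains.

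Values are in TPM, a relative abundance in which gene length is divided out, so that levels of different genes can be compared. Read counts are not part of them; the depth behind each value is therefore unknown, and counting intervals cannot be set. The libraries had 9951 to 11608 genes at 1 TPM or more. Ribosomal RNA took 8.65% to 12.9% of the TPM with EtOH and 6.10% to 19.03% in antimycin A, where replicate 3 was the highest. Differences were tested with limma on log2(TPM + 1) over 11099 genes, and a gene was called at a Benjamini-Hochberg adjusted p below 0.05 over all of them; fold changes below are on that scale unless given as a percent of the TPM. Of these genes 718 were called lower (6.47%) and 1579 higher (14.2%) in antimycin A. The middle of the distribution lay above 0, at a median log2 fold change of 0.21; with median-of-ratios scaling, which takes out most of that shift, 1185 were lower and 1394 higher. A second fit took the replicate number as a blocking term, called the block below. With the block 3282 of the 11099 tested genes were higher and 1442 lower (13%), against which the block counts below are to be read. The share of all tested genes at an unadjusted p under 0.05 is not given here. Marker lists showed several tissues in the pull-down. The 8 intestine markers summed to 8937 to 10403 TPM with EtOH and 2300 to 4764 TPM with antimycin A, with 5 lower, 1 higher and none at 0. The 9 pan-neuronal markers summed to 209 to 435 TPM and 358 to 664 TPM, with none called by limma (3 higher at an unadjusted p under 0.05, and 3 with the block). The 20 germline markers summed to 342 to 1236 TPM and 420 to 1040 TPM, with 0 of 18 tested called (0 at an unadjusted p under 0.05; 1 lower and 2 higher with the block). The 4 gonadal sheath markers summed to 2794 to 4358 TPM and 4890 to 6545 TPM, with none called (2 higher at an unadjusted p under 0.05, and 2 with the block). The 6 body wall muscle markers summed to 772 to 1003 TPM and 662 to 1084 TPM, with 0 called, 0 at an unadjusted p under 0.05 and 0 with the block. In hypodermis 1 of 3 tested markers was lower and 1 higher, and neither sperm marker tested was called, at an unadjusted p under 0.05 or with the block. The part of these tissues in the results was not tested. In such pooled RNA, fewer contributing cells and less RNA per cell cannot be told apart.

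Most of the ATP synthase genes were lower on the pulled-down ribosomes after antimycin A. The filter on low values kept all 10, of which 8 fell (*atp-1*, *atp-2*, *hpo-18*, *atp-3*, *atp-4*, *atp-5*, *asb-2* and *asg-2*), against 6.47% of all tested genes. None rose (limma; 0 higher at an unadjusted p under 0.05 and 0 with the replicate number as a block). The remaining 2, *asg-1* and the germline isoform *asb-1*, were not called. In 9 genes all 3 antimycin A libraries lay below all 3 EtOH libraries, which 11.6% of all tested genes did, and *asb-1* was the exception. The median log2 fold change of the 10 genes was -0.999, and -1.29 after median-of-ratios scaling. Highly abundant genes often fell in these libraries. Of 286 genes whose mean over the 6 libraries lay in the range of the 9 members other than *asb-1* (341 to 1129 TPM), 134 were lower (46.9%) and 41 higher, with a median of -0.64. How many of these 286 genes had all antimycin A libraries below all EtOH libraries was not counted. Together the 10 genes took 0.912%, 0.757% and 0.757% of all TPM with EtOH (replicates 1 to 3) and 0.467%, 0.369% and 0.315% with antimycin A. Their share was 2.11 times as high in EtOH as in antimycin A. Of protein-coding TPM the 10 genes took 1.03%, 0.894% and 0.855% with EtOH and 0.511%, 0.413% and 0.414% with antimycin A, a ratio of 2.08. The number of members called lower was 2 (*atp-3* and *asg-2*) when both libraries of replicate 2 were left out and 5 when both of replicate 3 were left out. It was 5 after quantile normalization, where *hpo-18*, *atp-4* and *atp-5* were no longer called.

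**Figure D1:**
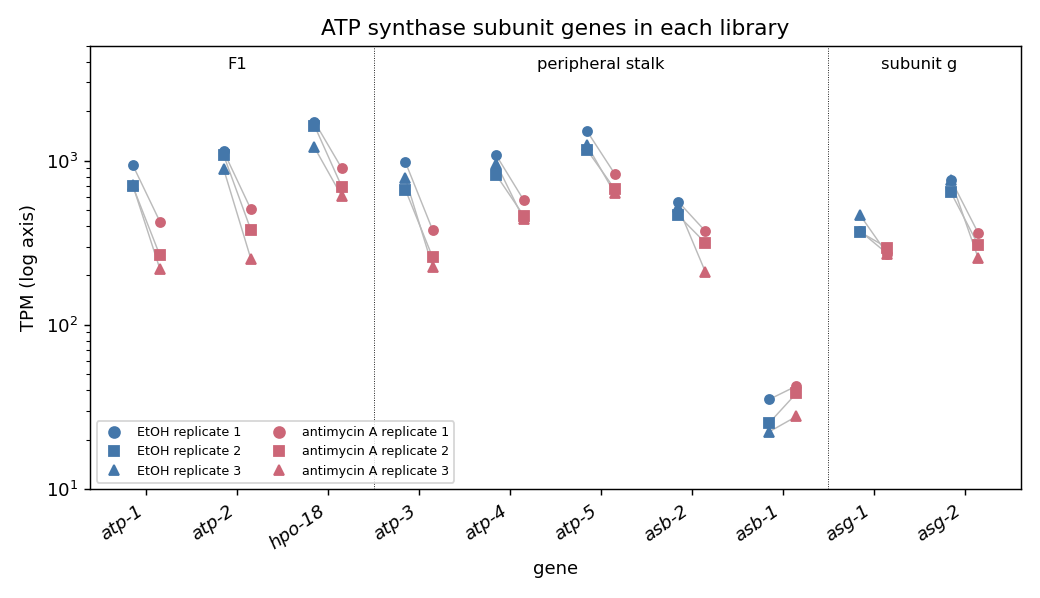
TPM of the 10 ATP synthase subunit genes on a log axis in the 3 EtOH (blue) and 3 antimycin A (red) libraries; marker shapes give the replicate number and grey lines join libraries of the same number. In 9 genes the red points lie below all blue points of the same gene, and in *asb-1*, at 22.3 to 42.4 TPM, each red point lies above the blue point of its number.

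The levels of the members differed from each other within each group. In EtOH the order from high to low was *hpo-18*, *atp-5*, *atp-2*, *atp-4*, *atp-3*, *atp-1*, *asg-2*, *asb-2*, *asg-1* and *asb-1*, from a mean of 1523 TPM to 27.6 TPM. The ranges of neighbours overlapped in this order except between *atp-5* and *atp-2*, between *asg-2* and *asb-2* and between *asg-1* and *asb-1*. In antimycin A the order began with *hpo-18*, *atp-5* and *atp-4*, followed by *atp-2* and *asg-2*. From *atp-4* down to *asg-1* every neighbouring pair of ranges overlapped, with means of 494 to 279 TPM.

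The F1 head is represented by 3 members, and all 3 fell. *atp-2* encodes the beta subunit, which carries the catalytic sites (WBGene00000229, WBcel235 chromosome III, 5228417 to 5230536, plus strand). It read 1143, 1086 and 895 TPM with EtOH (replicates 1 to 3) and 507, 380.5 and 253 TPM with antimycin A (replicates 1 to 3). The groups were well apart, and antimycin A replicate 3 was the lowest library. The log2 fold change was -1.50 ± 0.26 (SE; limma adjusted p = 0.00238), and the antimycin A library held 44.4%, 35.03% and 28.3% of the EtOH level of its own number.

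*atp-1* encodes the alpha subunit, which alternates with beta in the head (WBGene00010419, chromosome I, 12652277 to 12654646). It read 946, 704 and 715 TPM with EtOH and 426, 265 and 219 TPM with antimycin A. The groups did not overlap, and replicate 1 was the highest in both (-1.42 ± 0.26 SE, limma adjusted p = 0.00352). *hpo-18* encodes a homologue of the epsilon subunit, part of the central stalk (WBGene00017982, chromosome V, 4346089 to 4346425). Its mean was the highest of all members in both groups, although *atp-5* was above it in replicate 3 of each. It read 1728, 1636 and 1205 TPM with EtOH and 900, 696 and 609 TPM with antimycin A. It lost a smaller part than *atp-2* (-1.05 ± 0.22 SE, limma adjusted p = 0.00773), and 48.2% of the EtOH mean remained against 36.5% for *atp-2*. In each library *hpo-18* stood above *atp-2*, at 1.51, 1.51 and 1.35 times its level in EtOH and 1.77, 1.83 and 2.40 times in antimycin A.

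The peripheral stalk has 5 members, of which 4 fell. *atp-3* encodes OSCP, the subunit that joins the stalk to the top of the head; its RNA interference is known to lengthen worm lifespan. At WBGene00000230 (chromosome I, 5428469 to 5429908) it read 981, 666 and 783 TPM with EtOH and 378, 258 and 225 TPM with antimycin A. This was the lowest fitted change among the 10 genes (-1.51 ± 0.24 SE, limma adjusted p = 0.00158). The other stalk genes lost less. *atp-4*, for the F6 subunit (WBGene00020275, chromosome V, 6426193 to 6427112), read 1078, 817 and 960 TPM with EtOH and 577, 463 and 441 TPM with antimycin A. *atp-5*, for subunit d (WBGene00007385, chromosome V, 11122820 to 11123867), read 1507, 1158 and 1239 TPM with EtOH and 835, 674 and 636 TPM with antimycin A. Both were separated between the groups, at -0.95 ± 0.20 (limma adjusted p = 0.00707) and -0.86 ± 0.20 (limma adjusted p = 0.0115). For *atp-5* the adjusted p was 0.0574 without antimycin A replicate 2.

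Subunit b, the long arm of the stalk, is made from a pair of genes, *asb-1* and *asb-2*. *asb-1* is known as the germline isoform, and *asb-2* serves the somatic tissues. *asb-2* (WBGene00000207, chromosome X, 4469743 to 4471476) read 563, 465 and 522 TPM with EtOH and 372, 315 and 210 TPM with antimycin A. All antimycin A libraries were below all EtOH libraries, and *asb-2* fell by 0.82 on the log2 scale (SE 0.23, limma adjusted p = 0.0319). That call was near the threshold. Leaving out EtOH replicate 1, 2 or 3 gave adjusted p values of 0.0518, 0.0756 and 0.0860, and leaving out antimycin A replicate 2 or 3 gave 0.0816 and 0.0624. With no filter on low values it was 0.0947.

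*asb-1* (WBGene00000206, chromosome III, 4594543 to 4595944) read 35.1, 25.2 and 22.3 TPM with EtOH and 42.4, 38.3 and 27.7 TPM with antimycin A. The groups overlapped, while each antimycin A library was above the EtOH library of its own number. The log2 fold change was 0.38 ± 0.27 (SE; 95% interval -0.23 to 0.99; limma adjusted p = 0.421), and 0.10 with median-of-ratios scaling. The germline markers, read beside it, had a median log2 fold change of 0.13 (-0.13 with median-of-ratios scaling), with 0 of 18 called.

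Set side by side in each library, the pair of subunit b genes stood in different proportions in the groups. *asb-2* stood 16.02, 18.4 and 23.4 times as high as *asb-1* with EtOH (replicates 1 to 3) and 8.76, 8.23 and 7.57 times with antimycin A. As a share of the summed TPM of both genes, *asb-1* made up 5.87%, 5.15% and 4.103% in EtOH and 10.2%, 10.8% and 11.7% in antimycin A. The log2 ratio of *asb-1* to *asb-2* differed by 1.205 between the groups and was higher in 3 of 3 same-numbered pairs. The groups did not overlap, and the exact two-sided permutation test gave p = 0.1, the smallest that 3 against 3 libraries allow. Adjusted over the 3 isoform ratios tested here it was also 0.1. A plain ratio of TPM within a library does not depend on how the library is scaled. The log2 ratio tested has 1 added to each TPM, so it keeps some dependence. With 0.1 added the difference was 1.218, and with 5 added it was 1.153. Of the pair only *asb-2* was called, and how many of all tested genes rise in this way against *asb-2* was not counted. Set against *atp-2*, which also fell, 83.8% of all tested genes stood higher in every antimycin A library than in every EtOH library.

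Subunit g, a membrane subunit at the place where enzymes join into dimers, also has a pair of genes, of which 1 was called. *asg-2* (WBGene00000210, chromosome X, 6841258 to 6842129) read 767, 640 and 759 TPM with EtOH and 363, 307 and 255 TPM with antimycin A. It fell by 1.23 on the log2 scale (SE 0.20, limma adjusted p = 0.00163). *asg-1* (WBGene00000209, chromosome I, 8692946 to 8693468) read 373, 368 and 467 TPM with EtOH and 271, 295 and 270 TPM with antimycin A. Its groups did not overlap either, but the change of -0.52 ± 0.19 was not called (limma adjusted p = 0.0780) and passed only with the replicate number as a block (adjusted p = 0.00653). In EtOH *asg-2* was the higher gene of the pair in every library, and in antimycin A replicate 3 *asg-1* stood above it. The ratio of *asg-1* to *asg-2* was 0.486, 0.575 and 0.615 in EtOH and 0.748, 0.961 and 1.06 in antimycin A. The difference of 0.72 in log2 ratio gave an exact permutation p = 0.1, the smallest possible here, with 3 of 3 pairs higher. How many of all tested genes rise in this way against *asg-2* was not counted.

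**Figure D2:**
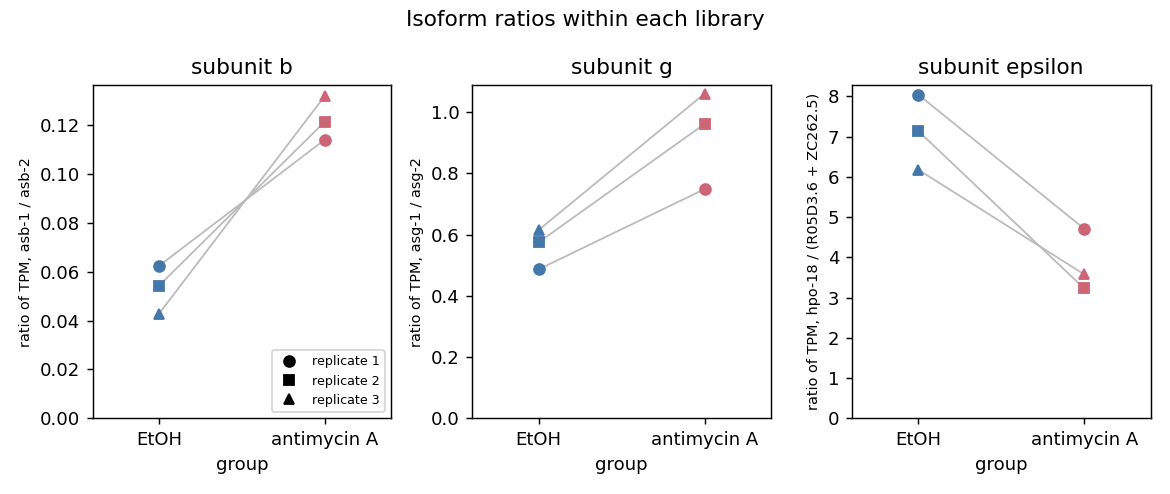
Ratio of the TPM of isoform genes within each library, on linear axes from 0, for subunit b (left), subunit g (middle) and subunit epsilon (right); blue is EtOH, red is antimycin A, and lines join libraries of the same number. The *asb-1* to *asb-2* ratio was 0.0428 to 0.0624 in EtOH and 0.114 to 0.132 in antimycin A, and in none of the 3 panels do the groups overlap. The share of all tested genes that separate in this way against the same denominators was not counted.

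The epsilon subunit has *hpo-18* and a pair of near-identical genes, *R05D3.6* and *ZC262.5*, which the table gives the same protein description. Their reads can be split between the copies, so each alone is uncertain. In EtOH replicate 3 *R05D3.6* read 30.3 TPM and *ZC262.5* read 165 TPM, while in the other 5 libraries the copies lay within 87.3 to 118 TPM and 82.9 to 111 TPM. Their sum was 215, 229 and 195 TPM with EtOH and 191, 216 and 170 TPM with antimycin A. These groups overlapped (exact permutation p = 0.3), and the sum, added after the values were seen, held 192 TPM ± 22.8 in antimycin A against 213 TPM ± 17.2 in EtOH (SD, n = 3 each). *hpo-18* was 8.04, 7.14 and 6.18 times the sum in EtOH and 4.71, 3.23 and 3.58 times in antimycin A. The difference in the log2 ratio of *hpo-18* to the sum, antimycin A minus EtOH, was -0.90 (exact permutation p = 0.1, the smallest possible). Against *R05D3.6* alone the difference was -1.47 with the same p. How many of all tested genes fall in this way against the sum or against *R05D3.6* was not counted.

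By role, the F1 members had a median log2 fold change of -1.42 and the peripheral stalk members one of -0.86. The difference of -0.55 was -0.30, -0.63 and -0.58 in the 3 same-numbered pairs. It did not divide the genes cleanly, since the stalk gene *atp-3* changed like *atp-1* and *atp-2*, and *hpo-18* changed like *atp-4*. With *Y69A2AR.18*, *F58F12.1* and *R05D3.6* added to the F1 genes the difference was -0.37. Set against *atp-2* in the same library, *atp-1* stood at 0.758 ± 0.0961 in EtOH and 0.801 ± 0.0911 in antimycin A, and *atp-3* at 0.782 ± 0.146 and 0.771 ± 0.108 (SD, n = 3 each). These levels relative to *atp-2* overlapped between the groups, as did those of *asg-2*. *hpo-18*, *atp-4*, *atp-5*, *asb-2*, *asb-1* and *asg-1* were higher relative to *atp-2* in every antimycin A library than in every EtOH library, as were 83.8% of all tested genes.

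**Figure D3:**
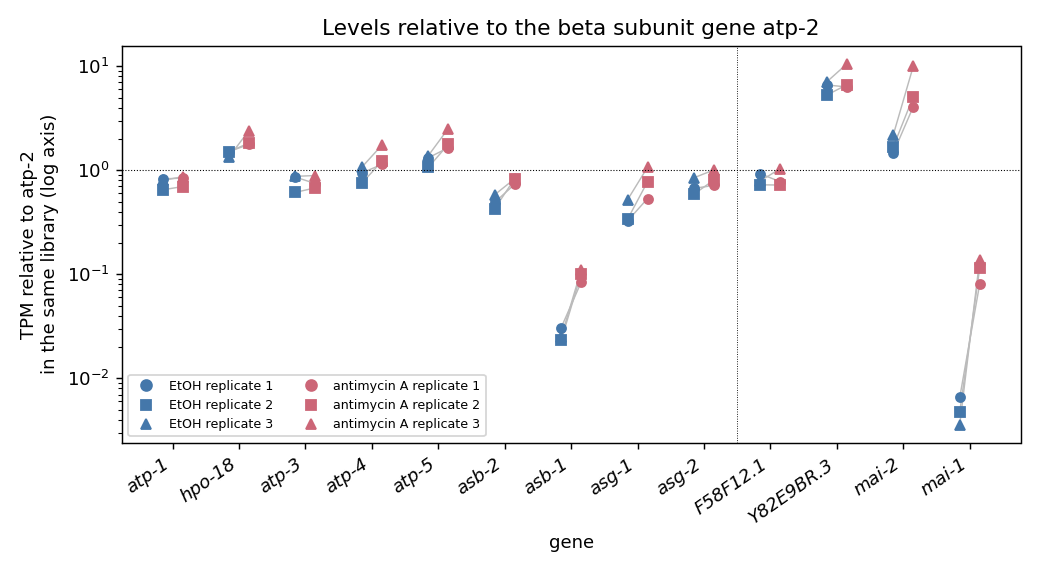
TPM of each gene divided by that of *atp-2* in the same library, on a log axis, for 9 members (left of the dotted line) and 4 further genes of the enzyme; blue is EtOH, red is antimycin A, and lines join libraries of the same number. *atp-1* and *atp-3* overlap between the groups, and *mai-1* shows the widest gap.

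The other genes of the enzyme, on a list of 9, gave 5 lower, 1 higher and 3 not called. Over all tested genes 6.47% were called lower and 14.2% higher. Of the 286 genes at the level of the 9 members other than *asb-1*, 46.9% were lower. A comparison with genes of their own level was not made for these 9 genes. *Y82E9BR.3*, for the lipid-binding c subunit of the proton ring (chromosome III, 1419196 to 1419914), was the most abundant gene of the enzyme in every library. It read 7556, 5733 and 6341 TPM with EtOH and 3204, 2524 and 2660 TPM with antimycin A, and fell by 1.22 on the log2 scale (SE 0.21, limma adjusted p = 0.00206). It ranked 17 among all tested genes by EtOH mean and 29 by antimycin A mean. *F58F12.1*, for the delta subunit of the central stalk, fell by 1.46 on that scale, close to *atp-2*, from 851 TPM ± 184 to 310.1 TPM ± 71.8 (SD, n = 3 each). *R53.4*, for subunit f, fell by 1.07 from 813 TPM ± 179 to 394 TPM ± 113. *R04F11.2* and *Y69A2AR.18*, which the table leaves without a description, fell by 0.95 and 0.85. *Y69A2AR.18* (limma adjusted p = 0.0266) missed the threshold when EtOH replicate 1 or 3, or antimycin A replicate 2 or 3, was left out, at adjusted p values of up to 0.103, and also when no filter on low values was applied (0.0786). Quantile normalization ended the calls of *R04F11.2* (-0.35, limma adjusted p = 0.220) and *R53.4* (-0.64, limma adjusted p = 0.0602), and *R53.4* was not called without the filter either (0.0709). None of these 5 genes was called when both libraries of replicate 2 were left out, at limma adjusted p values of 0.0520 to 0.172.

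*atp-6*, the mitochondrially encoded a subunit through which protons pass, followed the replicate number and not the treatment. It read 380, 175 and 43.3 TPM with EtOH (replicates 1 to 3) and 406, 152 and 52.0 TPM with antimycin A (replicates 1 to 3). Same-numbered libraries were close to each other and the groups overlapped fully (0.05 ± 0.81 SE, limma adjusted p = 0.983). In these same pairs 9 of the 10 nuclear members stood lower in antimycin A, and *asb-1* stood higher. *atp-6* overlaps *nduo-1* by 2 bases on the same strand.

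Of the pair of inhibitor genes, 1 rose and the other was not called. *mai-1*, for a homologue of IF1 (WBGene00003124, chromosome X, 3114668 to 3116538, minus strand), read 7.49, 5.15 and 3.22 TPM with EtOH and 40.7, 43.6 and 34.8 TPM with antimycin A. It rose by 2.75 on the log2 scale (SE 0.32, limma adjusted p = 2.23e-04), and antimycin A stood at 7.51 times the EtOH mean. Among the 19 genes of the enzyme described here it was the only one called higher, beside 14.2% of all tested genes. The call held under each of the 17 other settings tried, at log2 fold changes of 2.14 to 2.99. *mai-1* lies at the head of an operon with the glycolytic genes *gpd-2* and *gpd-3*, and its locus in the table overlaps that of *gpd-2* on the same strand. *gpd-2* read 156, 89.7 and 104.3 TPM with EtOH and 259, 172 and 157 TPM with antimycin A and was not called (0.75 ± 0.27 SE, limma adjusted p = 0.0823, blocked 1.42e-04). *gpd-3*, a near copy of *gpd-2* with which it can share reads, read 237, 128 and 133 TPM and 435, 327 and 241 TPM (1.02 ± 0.29 SE, limma adjusted p = 0.0326). Both were chosen after the overlap was seen, and the part of *gpd-2* reads in the *mai-1* values was not tested.

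*mai-2*, the other IF1 homologue, stood far higher, at 1676, 1826 and 1961 TPM with EtOH and 2066, 1929 and 2519 TPM with antimycin A. The groups overlapped and it was not called (0.25 ± 0.19 SE, limma adjusted p = 0.468; -0.042 with median-of-ratios scaling). With *atp-2* lower, *mai-2* stood at 1.47, 1.68 and 2.19 times *atp-2* in EtOH and at 4.07, 5.07 and 9.95 times in antimycin A. These groups did not overlap, as for 83.8% of all genes set against *atp-2*.

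**Figure D4:**
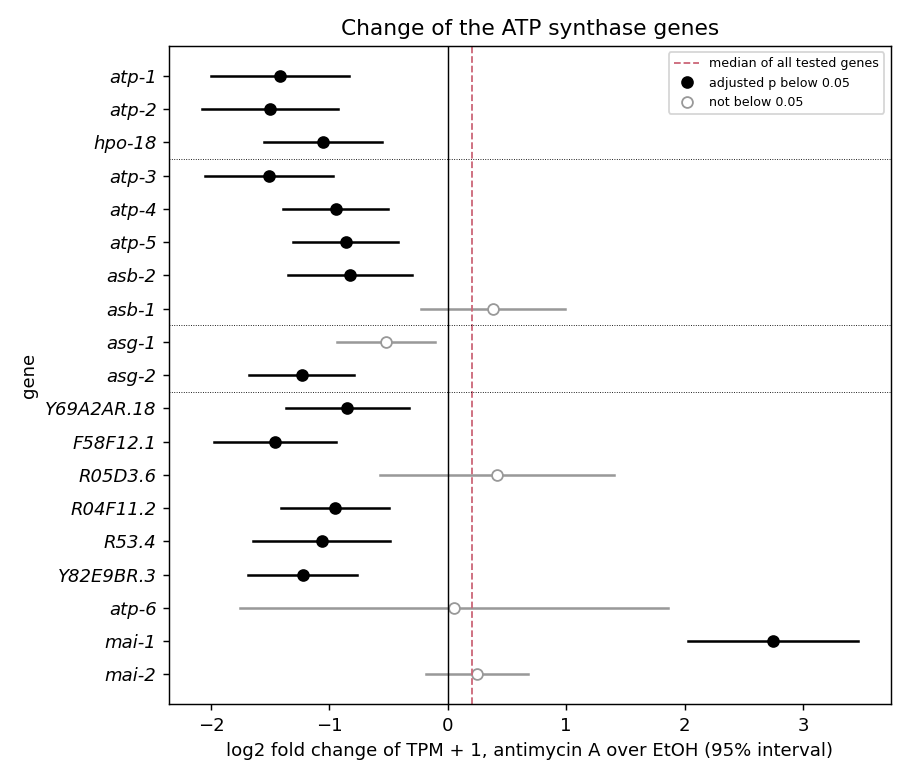
Log2 fold change of TPM + 1, antimycin A over EtOH, with its 95% interval from limma for the 10 members (top 3 blocks: F1, peripheral stalk, subunit g) and the 9 other genes of the enzyme; filled points have an adjusted p below 0.05, and the dashed line is the median of all tested genes, 0.21. *mai-1* at 2.75 is the filled point to the right of 0, and the other 13 filled points lie between -1.51 and -0.82.

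The carriers that feed the enzyme were lower in all pairs but were not called by limma on unscaled TPM without the block (0 of 2 at an unadjusted p under 0.05). *ant-1.1*, the ADP/ATP translocase, read 1551, 727 and 704 TPM with EtOH and 857, 555 and 262.1 TPM with antimycin A. The groups overlapped (-0.89 ± 0.43 SE, limma adjusted p = 0.198), and with the replicate block the adjusted p was 9.99e-05. The phosphate carrier *F01G4.6* gave -0.50 ± 0.33 (limma adjusted p = 0.370, blocked 0.00844). With median-of-ratios scaling both passed, at limma adjusted p values of 0.0198 and 0.0318. Of all 11099 tested genes 1185 were lower with that scaling, and 13% were lower with the block. The other 4 carrier genes listed did not pass the filter on low values.

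Among the complexes of the respiratory chain, the counts of lower genes varied widely, each beside 6.47% of all genes. Abundant genes fell more often. Of the 286 genes at the level of the 9 members other than *asb-1*, 46.9% were lower, with a median of -0.64. The complexes were not compared with genes of their own level. Of 31 complex I genes 13 fell and none rose (median -0.54; 20 lower with the block, under which 13% of all genes were lower), led by *F42G8.10*, *F31D4.9* and *F37C12.3* at -1.38, -1.16 and -1.101. Of 7 complex IV genes 3 fell (*cox-5B*, *cox-7C* and *cox-5A*, at -0.95, -0.89 and -0.78; median -0.52; 6 with the block). After quantile normalization these 3 stood at -0.36, -0.25 and -0.14 and none of them was called (limma adjusted p = 0.136, 0.314 and 0.590). Complex III, which antimycin A binds, gave with cytochrome c 1 lower gene of 12, the Rieske iron-sulfur subunit gene *isp-1* at -1.11 (median -0.14; 4 with the block). Next by p were *ucr-1* and *T27E9.2*, with adjusted p values of 0.0702 and 0.128. With median-of-ratios scaling 3 of the 12 were lower, where 1185 of all 11099 tested genes were lower. *ucr-1* was called lower with that scaling (limma adjusted p = 0.00616), after quantile normalization (0.00481), with protein-coding genes only (0.0385) and with the block (1.76e-04). None of the 5 complex II genes was called by limma (median 0.05; 0 at an unadjusted p under 0.05, 1 higher with the block), and the smallest p values belonged to *sdha-2*, *sdha-1* and *mev-1* (limma adjusted p = 0.534, 0.638 and 0.883). None of the 7 named genes that were called on unscaled TPM without the block was still called when both libraries of replicate 2 were left out. The members' median of -0.999 was below each of these medians; the difference between lists was not tested.

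**Figure D5:**
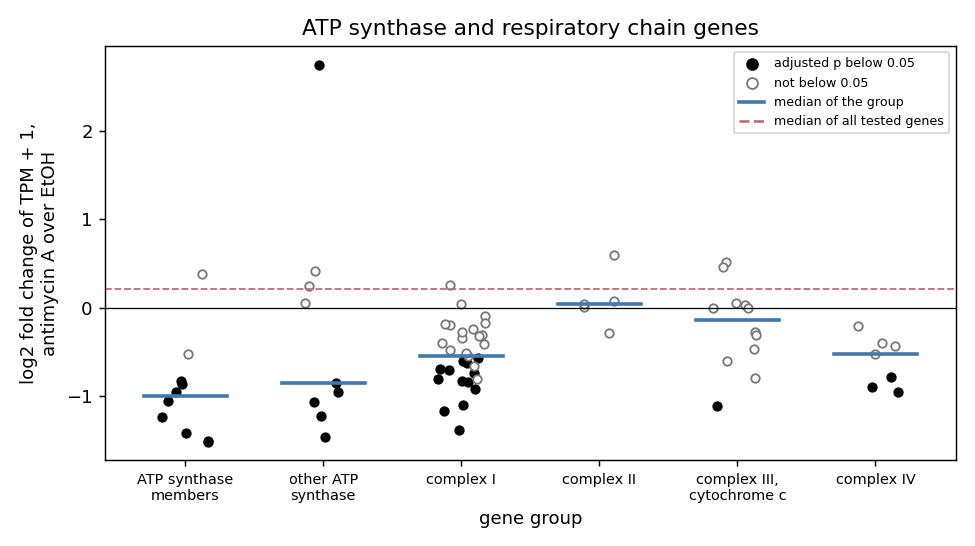
Log2 fold change of TPM + 1, antimycin A over EtOH, for each tested gene of the ATP synthase members, the other ATP synthase genes and complexes I to IV; filled points have an adjusted p below 0.05, blue bars are medians, and the dashed line is the median of all tested genes. The member median is -0.999, against -0.54 for complex I and 0.05 for complex II.

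The authors' deposited table gives a q below 0.05 with a lower value for 9 of the 10 members, against 2.94% of the 46904 genes in it. These are the 8 called here and *asg-1* (log2 ratio of mean TPM -0.53, q = 0.0426 in the authors' deposited table). The 46904 genes include those without signal, 30522 to 32608 in each library. The 2.94% is therefore not a share of expressed genes and cannot be set beside the 6.47% of the tested genes. For *asb-1* the authors' deposited table gives a log2 ratio of 0.39 and q = 0.917, and for *mai-1* a log2 ratio of 2.91 and q = 5.43e-18.

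The annotation places few genes over the members. *atp-1* overlaps a piRNA gene, *21ur-12279*, on its own strand, and *asg-1* overlaps *K07A12.5* on the opposite strand by 18 bases, with at most 7.59e-04 and 0.358 TPM in any library. The other 8 members overlap no other gene of the table. The construct genes were not called, with *tbh-1* at 1666 TPM ± 66.8 and 2098 TPM ± 616 and *rpl-22*, which the transgene also carries, at 3229 TPM ± 1053 and 3621 TPM ± 1324 in EtOH and antimycin A (SD, n = 3 each; limma adjusted p = 0.502 and 0.854).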

How the data were processed

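The authors deposited TPM for 46904 genes in 6 libraries, with a ratio and a log2 ratio of mean TPM, a p-value and a q-value, per the file headers. Build WBcel235 is named in the submitters' processing notes, as are DESeq2 1.28.1, StringTie 2.1.4, HISAT2, Trimmomatic 0.36 and bcl2fastq 2.20; what each did, and whether strand was used, is not given there. The no-signal value of 1e-04 was set to 0.

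The 11099 genes that reached 1 TPM in 3 or more libraries were tested with limma 3.58.1 (R 4.3.3, mean-variance trend) on log2(TPM + 1), with group as the only term. This step was first run on simulated data with planted changes, and the outcome is not reported here. Noise was drawn independently for each simulated library, so the run does not cover the correlation of same-numbered libraries. Isoform ratios were tested with scipy 1.17.1 by exact two-sided permutation of libraries. Figures were drawn with matplotlib 3.10.9 and tables made with numpy 2.4.6 and pandas 2.3.3 in Python 3.11.15.

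The design text calls the 3 experiments independent, each with 1 library per group. Deviations of same-numbered libraries correlated at 0.68, 0.31 and 0.59, so libraries of the same number are compared as pairs in the text. The calls come from the fit without this pairing, and the fit with the replicate block is an alternative. All members, the other listed ATP synthase genes and the 3 smallest p values of each respiratory list are named; marker lists are given as counts. Members and lists were chosen with earlier results of these data known. Of the listed genes *nduf-9*, *nduf-11* and *opt-2* were not matched. Columns of other samples numbered 0. The tables of single pairs were not used here, and no sequence is printed.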

Additional observations from a re-analysis of the deposited data

How the results depend on the processing

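Each of the 10 members kept the sign of its fold change under all 17 alternative settings. The number of members called lower, 8 as reported, was 5 after quantile normalization, 7 with no filter on low values (without *asb-2*) and 2 to 8 with a library or a pair left out; it was 9 with the replicate block, which added *asg-1* and changed no other call among the members. For the ratios of isoform genes the block is an exact sign-flip permutation test over 3 pairs, which gave p = 0.25, the smallest it allows, for each of the 3 ratios (1.205, 0.72 and -1.47). No alternative turned the direction of these ratios; for *hpo-18* the copy *ZC262.5* was added to *R05D3.6* after the data were seen, with a value of -0.90. The F1 minus stalk difference was -0.37 with 3 further F1 genes. Over all tested genes, 3282 were higher and 1442 lower with the block, 1185 lower after median-of-ratios scaling and 1398 lower after quantile normalization. With a library or pair left out, 485 to 2035 were higher and 162 to 720 lower, the lowest counts without both libraries of replicate 2. The tested genes were kept fixed in these fits, in which a pair left out leaves 2 libraries per group.

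Signs turned for genes that were not called. After median-of-ratios scaling *atp-6* was at -0.23, *mai-2* at -0.042, *tbh-1* at -2.33e-04, *rpl-22* at -0.15 and *mev-1* at -0.21; after quantile normalization *atp-6* was at -0.11 and *mev-1* at -0.059. With a library or pair left out, *atp-6* ranged from -0.80 to 0.80 (below 0 without EtOH replicate 3, antimycin A replicate 1 or both of replicate 3), *R05D3.6* from -0.21 to 0.75 (below 0 without EtOH replicate 3, alone or with its partner), *rpl-22* from -0.11 to 0.46 and *mev-1* from -0.055 to 0.22 (both below 0 without EtOH replicate 3 or antimycin A replicate 1, and *rpl-22* also without both of replicate 2). The cause was not tested. TPM keep no depth, so no limit from counting can be given.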
